A study of Cucumis x hytivus and Cucumis hystrix and Cucumis sativus with 8 samples.

Results

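The predicted miRNAs PC-169-5p, PC-131-3p, PC-132-5p, PC-159-3p, PC-20-3p, PC-24-5p, PC-142-5p and PC-198-3p are described here in Cucumis leaves. They are 8 of 733 different sequences in the table, and of 287 that carry a PC name and no family number. They were chosen by their raw read counts in the libraries of the diploid parent species: the first 4 were higher in C. hystrix and the last 4 in C. sativus. That contrast between the parents is therefore given as a description, with no test. Leaf small RNAs were profiled in 4 groups of 2 libraries each: young leaves and mature leaves of the synthetic allotetraploid Cucumis ×hytivus (generation 10 of selfing), mature leaves of its wild diploid parent C. hystrix, and mature leaves of its cultivated diploid parent C. sativus, cucumber, cultivar BeijingJietou. The young leaf was the uppermost one and the mature leaf the first that was fully grown, so the effects of age and of place on the stem cannot be told apart. All plants were raised from seed in climate chambers under shared settings. No source states that the libraries of a group came from separate plants, so p-values here reflect the spread between samples that may be technical replicates.

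Plant miRNAs are cut from hairpin-shaped transcripts by a DICER-LIKE enzyme, which leaves a duplex of the 5p and 3p arms with short unpaired 3′ ends. The arm that is loaded into an Argonaute protein guides it to messages with matching sequence, which are cut or held back from translation. Canonical plant miRNAs are mostly 21 bases long, while 24-base small RNAs are in the main the product of a related enzyme that serves DNA methylation of transposons and repeats. In Arabidopsis the first base of a small RNA is one of the features by which Argonaute proteins sort it. Many miRNAs that a single lineage carries are young, weakly expressed and without a known target, and no target or role of the 8 sequences is known from the sources used here.

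The sequences are shown because none of the 8 shares its seed with another of them or with an entry that has a family number. They are written 5′ to 3′ as the table lists them, with T for U, and capitals mark the seed, bases 2 to 8.
PC-169-5p: tCGGGAATagccacacaactc
PC-131-3p: aTTTAAGAtttgcagtatgaactt
PC-132-5p: tAAAGAAAgaacttcaaggaa
PC-159-3p: aGTATAGGgaccaaaatgaacatt
PC-20-3p: aATGTAGTtgtattcttaattatt
PC-24-5p: aTTTGAATtctaagccaaatt
PC-142-5p: cTGTGATGattattgatttag
PC-198-3p: cATGTAGAaatcgaatgagtt
The seed of PC-131-3p was also found in the predicted PC-49-5p, and that of PC-24-5p in PC-98-5p and PC-187-5p. No entry with a family number lay closer than 7 edits (substitutions, insertions or deletions) to any of the 8, a distance reached for PC-169-5p, PC-132-5p, PC-24-5p and PC-142-5p. PC entries carry no family number, and this distance was not worked out over all of them, so it is not shown to be particular to the 8. Of the 8 sequences, 5 are 21 bases long (62.5%, against 24.4% of all 287 PC entries) and 3 are 24 bases long (37.5%, against 36.6%). All 3 of the 24-base sequences, PC-131-3p, PC-159-3p and PC-20-3p, begin with A, as do 66.7% of 24-base PC entries. PC-169-5p and PC-132-5p are 21 bases long and begin with T, the first base of 29 of the 70 PC entries of that length. PC-169-5p is also the richest of the 8 in G and C, at 52.4%, against a median of 30.4% over the PC entries and 47.6% over entries with a family number.

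Each of the 8 is listed at 1 locus, on a genome build that the sources used here do not name. The higher-in-C. hystrix sequences lie on chromosomes 7, 4 and 3: PC-169-5p at chr7:8370983-8371159 on the minus strand, PC-131-3p at chr4:8688831-8689071 on the plus strand, and PC-132-5p at chr3:29772131-29772237 and PC-159-3p at chr3:5712954-5713205, both on the minus strand. The higher-in-C. sativus sequences lie on chromosomes 1 and 2: PC-20-3p at chr1:28311555-28311744 on the minus strand, PC-142-5p at chr1:21942638-21942884 on the plus strand, and PC-24-5p at chr2:7590772-7591048 and PC-198-3p at chr2:6897640-6897816, both on the minus strand. Whether these loci lie in genes was not analysed here. The authors' folding energy index (MFEI, which relates the energy of a hairpin to its length and base content) was 0.9 for PC-169-5p, PC-159-3p and PC-198-3p, a value below which no PC entry is listed. It was 2.3 for PC-142-5p, whose hairpin of 244 bases has a listed energy of -217.1 and a higher index than 89.2% of PC entries. PC-24-5p is listed with a hairpin of 106 bases in an interval of 277 bases, while for PC-159-3p both lengths are 252 bases.

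The libraries held between 99196 and 464306 listed reads, with each sequence counted once, and those of the PC entries made up 0.51% to 1.98% of them. The second C. sativus library was the shallowest and stood apart: families whose sequences are known from ribosomal or transfer RNA (77 entries of 10 listed families) took 57.9% of its reads, against 17.4% in the first C. sativus library and 6.16% to 17.2% in the other 6. The leaf-abundant families miR166 and miR159 took 32.8% of its reads and 68.7% to 88.5% of those in the other libraries. Families found in phloem sap took 0.119% to 3.68% of reads and families of shoot apex or primordia 0.14% to 0.742%, with the highest shoot apex shares in both young leaf libraries. Levels below are CPM, counts relative to the library's TMM-scaled total of tested reads on the usual CPM scale, where the scaling corrects library totals for a few dominant sequences. A count of 0 was given a floor of 3 reads, about its upper 95% bound. On the TMM scale 3 reads are worth 15.2 CPM in the second C. sativus library and 7.6 to 17.7 CPM in the other libraries. With no scaling factor they are worth 30.4 CPM in that library. These floors, and the read intervals below, cover counting error only. Whether a species carries a variant of a listed sequence that would go uncounted was not tested.

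PC-169-5p carried a large share of the reads of predicted miRNAs in C. hystrix and in C. ×hytivus, and nearly none in C. sativus. It held 36.7% and 25.2% of all PC reads in young C. ×hytivus leaves, 65.8% and 45.9% in mature C. ×hytivus leaves, 73.5% and 92.2% in C. hystrix leaves, and 0.573% and 0 in C. sativus leaves. By its mean level it ranked 12th of the 733 entries and first of the PC entries. The other 7 sequences together held 8.56% and 11.4% of PC reads in young C. ×hytivus, 6.78% and 6.14% in mature C. ×hytivus, 3.78% and 2.18% in C. hystrix leaves, and 6.22% and 20% in C. sativus leaves. Their ranks by mean level ran from 82nd for PC-131-3p to 271st for PC-20-3p.

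**Figure D1:**
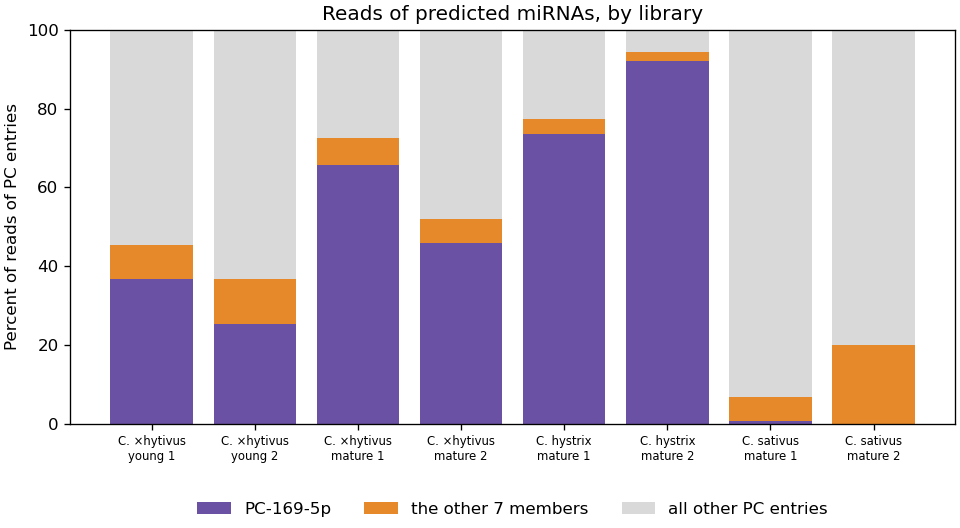
Percent of the deposited raw reads of all 287 PC entries that fell to PC-169-5p, to the other 7 described sequences and to all other PC entries, in each of the 8 libraries. PC-169-5p holds 25.2% to 92.2% in the 6 libraries of C. ×hytivus and C. hystrix and under 1% in both C. sativus libraries.

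Among the sequences chosen as higher in C. hystrix, PC-169-5p had 3071 and 4035 raw reads in the C. hystrix libraries and 7 and 0 in the C. sativus libraries. In CPM these were 10880 and 23784 in C. hystrix, against 23.6 and 0 in C. sativus, a log2 fold change of 10.37 (SE 1.62). The size of that ratio depended on which C. sativus library was kept. The log2 fold change was 15.24 without the first and 9.78 without the second. A fitted value against a group with no read left, here and below, depends on the prior count and is no measure of the ratio. Against the floor of 3 reads in the second alone, C. hystrix was 1036-fold higher on the TMM scale and 412-fold higher with library totals only. These folds, and those against that floor below, take the pooled C. hystrix reads as exact. PC-131-3p had 163 and 200.4 CPM in C. hystrix against 33.7 and 0 in C. sativus (log2 fold change 3.31, SE 1.28, and 8.65 without the first C. sativus library). PC-159-3p had 152 and 248 CPM in C. hystrix against 33.7 and 0 in C. sativus (log2 fold change 3.45, SE 1.33, and 8.79 without the first C. sativus library). Against the floor of the second C. sativus library, PC-131-3p was 11.7-fold higher in C. hystrix on the TMM scale and 4.64-fold higher with library totals only. PC-159-3p was 12.4-fold higher in C. hystrix on the TMM scale and 4.93-fold higher with library totals only. PC-132-5p, the weakest of the 4, had 99.2 and 88.4 CPM in C. hystrix, against 6.73 and 0 in C. sativus. Its log2 fold change was 4.49 (SE 1.68), and 7.70 without the first C. sativus library. After rounding, its 43 reads in C. hystrix stood against 2 in C. sativus, where 2.5 reads were deposited. That is a ratio of 23.5 on the TMM scale, with an exact 95% counting interval of 6.13 to 201. Against the floor of the second C. sativus library, PC-132-5p was 6.27-fold higher in C. hystrix on the TMM scale and 2.49-fold higher with library totals only. All 4 thus had their C. sativus reads in the first library alone, and in each the 2 C. hystrix libraries lay above both C. sativus libraries. That held for 18.8% of the 208 entries tested, and 0.962% of them passed the test between the parents, in either direction.

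The sequences chosen as higher in C. sativus were all weak, with at most 59 raw reads in a library. PC-20-3p had 1 and 1 raw reads in the C. hystrix libraries and 9 and 5 in the C. sativus libraries, in CPM 3.54 and 5.89 in C. hystrix against 30.3 and 25.3 in C. sativus. The C. hystrix level was 0.156 of the C. sativus level, with an exact 95% counting interval of 0.0173 to 0.681. PC-24-5p had 42.5 and 17.7 CPM in C. hystrix against 47.1 and 137 in C. sativus (log2 fold change -1.56, SE 1.55). Its first C. hystrix and first C. sativus libraries were nearly level, and without the second C. sativus library the log2 fold change was -0.37. PC-142-5p had 85 and 0 CPM in C. hystrix against 67.3 and 299 in C. sativus (-2.04, SE 1.40). It was the only one of the 8 whose parent groups overlapped, since the first C. hystrix library lay above the first C. sativus library, and its value was -0.36 without the second C. sativus library and -8.77 without the first C. hystrix library. The 0 of the second C. hystrix library stands for 0.5 deposited reads. PC-198-3p had 14.2 and 0 CPM in C. hystrix against 33.7 and 55.7 in C. sativus (-2.44, SE 1.75, with -6.67 without the first C. hystrix library and -1.81 without the second C. sativus library). The 2 C. hystrix libraries lay below both C. sativus libraries for 3 of these 4, and for 12.5% of all entries tested. For PC-24-5p, PC-142-5p and PC-198-3p the higher of the C. sativus values came from the library rich in ribosomal and transfer RNA fragments, whose part in the difference was not tested.

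**Figure D2:**
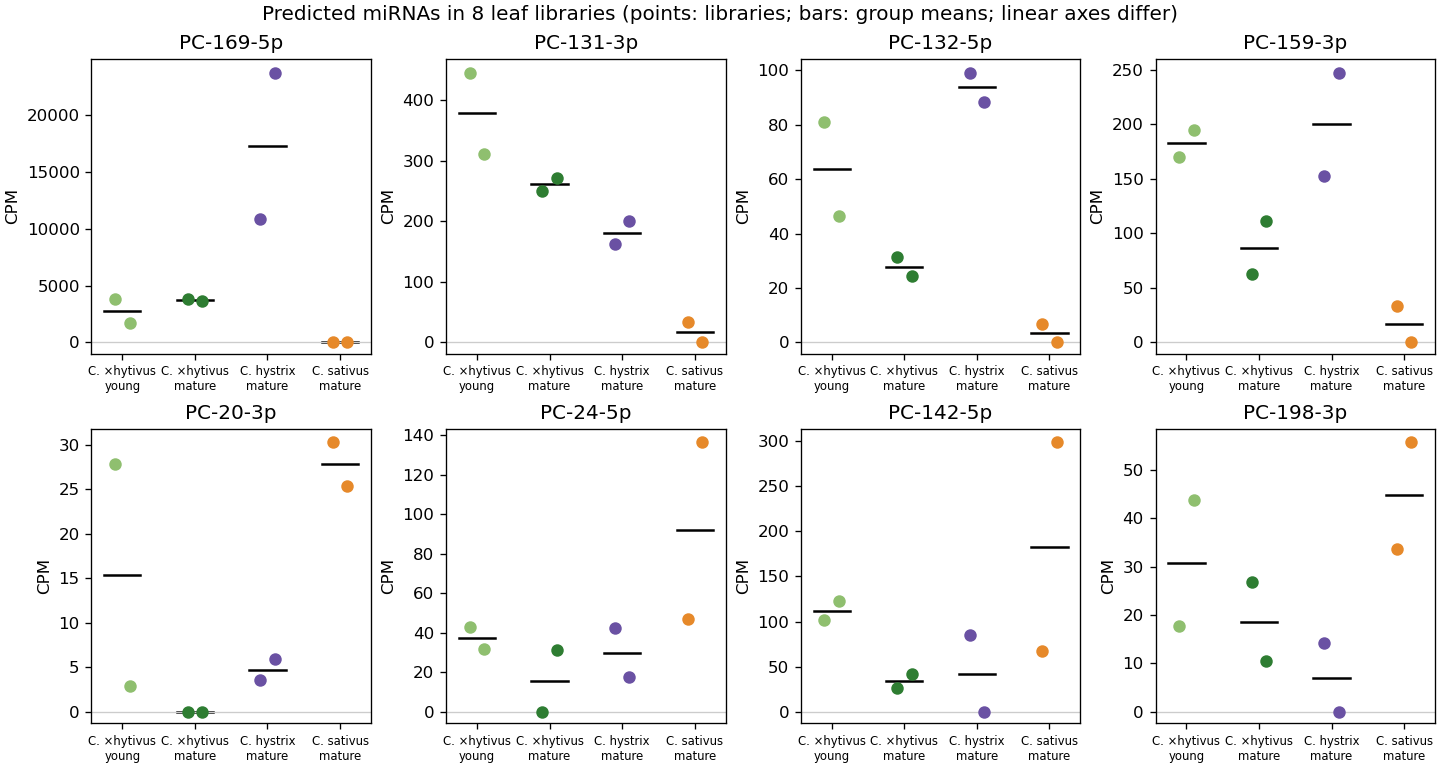
Level in CPM (linear axes, which differ between panels) of each of the 8 sequences in the libraries of young C. ×hytivus, mature C. ×hytivus, C. hystrix and C. sativus leaves. Points are libraries and bars are means of 2. In the upper row all C. hystrix points lie above the C. sativus points, and in the lower row those of PC-142-5p overlap.

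In the order of the 36 tested PC entries by fold change, the 4 higher-in-C. hystrix sequences took the first 4 places. Next came PC-88-5p, at a log2 fold change of 2.86, against 3.31 for PC-131-3p, the last of the 4. At the other end PC-21-3p (-2.76), PC-40-5p (-2.58) and PC-124-3p (-2.25) lay among or beyond the chosen sequences, and PC-40-3p (-1.75), PC-44-5p (-1.65) and PC-121-3p (-1.64) lay between PC-142-5p and PC-24-5p. The SE of PC-88-5p was 1.86 and that of PC-21-3p was 2.21, both larger than their distances from the nearest chosen sequences.

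The mature allotetraploid, which carries the chromosomes of both parents, is set beside them here without a test, since these comparisons use the parent libraries on which the sequences were chosen. PC-169-5p was at 3865 and 3649 CPM in mature C. ×hytivus, a mean of 3757 ± 153 (SD, n = 2) against 17332 ± 9124 in C. hystrix and 11.8 ± 16.7 in C. sativus. That is 21.7% of the C. hystrix mean and 43.3% of the plain mean of both parents, with a log2 fold change of -2.21 (SE 1.12) over C. hystrix, or -1.46 without the second C. hystrix library. On the log scale the same level lay 2.98 (SE 0.93) above the mid-parent, the mean of the parents' log values, or 5.40 above it without the first C. sativus library, which holds all 7 C. sativus reads. Thus the position against the mid-parent has opposite signs on the linear and the log scale. PC-132-5p, at 31.4 and 24.3 CPM in mature C. ×hytivus, was at 29.7% of the C. hystrix mean and 57.3% of the plain parent mean. PC-159-3p, at 62.7 and 111 CPM in mature C. ×hytivus, was at 43.5% of the C. hystrix mean and 80.3% of the plain parent mean. For these 3 both mature C. ×hytivus libraries lay below both C. hystrix libraries, as they did for 10.6% of the entries tested. For PC-20-3p they did so on 0 reads against 1 in each library, within the floor of 3 reads. For the 3 they also lay above both C. sativus libraries, as for PC-131-3p and for 19.2% of the entries tested. PC-131-3p differed from them: at 251 and 271 CPM both mature C. ×hytivus libraries lay above the C. hystrix libraries, which held for 8.17% of the entries tested, with a mean of 261 ± 14.5 CPM against 182 ± 26.5 in C. hystrix (log2 fold change 0.52, SE 1.13), or 263% of the plain parent mean.

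The higher-in-C. sativus sequences were all lower in mature C. ×hytivus than in C. sativus, with no overlap between these libraries. That pattern held for 10.6% of the entries tested, but the 4 were chosen for high C. sativus reads, so the shares are not comparable. PC-20-3p had no read in mature C. ×hytivus, in 2 libraries whose floors were 13.4 and 10.4 CPM, and was at least 3.42-fold lower there than in C. sativus by the exact 95% counting interval over both libraries. Set at the floor of 3 reads, it was 4.82-fold lower there on the TMM scale and 8.08-fold lower with library totals only. With 2 reads in C. hystrix, no fold against that parent can be given. PC-24-5p, at 0 and 31.3 CPM in mature C. ×hytivus, was at 17% of the C. sativus mean and 52% of the C. hystrix mean. Its log2 fold change over C. hystrix, -0.91 (SE 1.59), was 0.23 without the first mature C. ×hytivus library and -6.12 without the second. PC-142-5p, at 26.9 and 41.7 CPM, was at 18.8% of the C. sativus mean and 80.7% of the C. hystrix mean, though the C. hystrix libraries were far apart. PC-198-3p, at 26.9 and 10.4 CPM, was at 41.8% of the C. sativus mean and 263% of the C. hystrix mean, on 9 reads in mature C. ×hytivus against 4 in C. hystrix (ratio 1.99, exact 95% counting interval 0.556 to 8.85). Of all 8 sequences, 4 had a mature C. ×hytivus mean CPM between the parents' mean CPM (PC-169-5p, PC-132-5p, PC-159-3p and PC-198-3p), against 37% of the entries tested. With means of log2(CPM + 1) in place of means of CPM it was 5 of the 8, PC-142-5p being added. The mature C. ×hytivus mean was nearer to C. hystrix than to C. sativus on the log2(CPM + 1) scale for 7 of the 8, PC-198-3p being the exception, and for 65.4% of the entries tested. The young C. ×hytivus mean lay between the parent means for 7 of the 8, all but PC-131-3p, and for 24.5% of the entries tested. The 8 were chosen for a difference between the parents, which widens the span between the parent means. Their shares between the parents, for mature and for young leaves, are therefore not comparable with those of all entries tested. The same holds for their shares above, below or nearer to a parent, here and in the paragraph before.

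**Figure D3:**
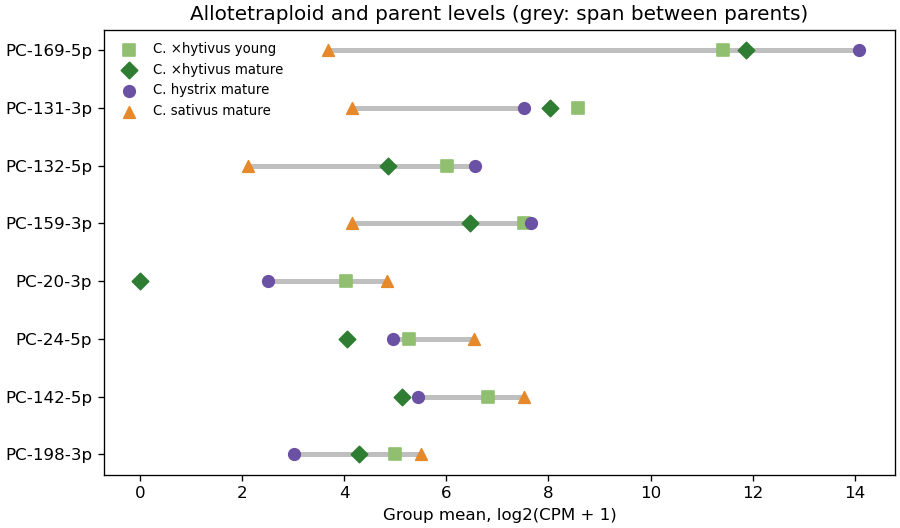
Group mean CPM, averaged first and then drawn as log2(CPM + 1), for each of the 8 sequences, with a grey line that spans the parents. Young C. ×hytivus (squares), mature C. ×hytivus (diamonds), C. hystrix (circles) and C. sativus (triangles) are means of 2 libraries each. Mature C. ×hytivus lies inside the span for 4 of the 8, and beyond the C. hystrix end for PC-131-3p, PC-20-3p, PC-24-5p and PC-142-5p. Of PC-20-3p, mature C. ×hytivus had no read and each C. hystrix library 1, a difference within the floor of 3 reads.

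Leaf age within C. ×hytivus used none of the parent libraries for its contrast and was tested. None of the 8 sequences passed. The spread behind the SE and p-values was estimated over all 8 libraries, so the parent libraries bear on both. Leaving out the first or the second C. sativus library lowered the SE of PC-169-5p, PC-131-3p, PC-132-5p, PC-159-3p, PC-24-5p and PC-142-5p. It raised the SE of PC-20-3p, and for PC-198-3p the direction depended on the library. Of the 8, 7 had a higher fitted level in young than in mature leaves, but so did most other predicted entries. PC-142-5p was at 101 and 122 CPM in young leaves, against 26.9 and 41.7 in mature leaves (log2 fold change 1.69, SE 1.39, adjusted p = 0.78 by the edgeR quasi-likelihood test, Benjamini-Hochberg over the 208 tested entries). The rounded read totals behind it were 82 in young and 18 in mature leaves, and both young libraries lay above the mature ones. PC-159-3p was at 169.8 and 195 CPM in young leaves, against 62.7 and 111 in mature leaves (log2 fold change 1.06, SE 1.19, adjusted p = 0.8 in edgeR). PC-131-3p was at 446 and 312 CPM in young leaves, against 251 and 271 in mature leaves (log2 fold change 0.54, SE 1.12, adjusted p = 0.83 in edgeR). PC-132-5p was at 81.1 and 46.6 CPM in young leaves, against 31.4 and 24.3 in mature leaves (log2 fold change 1.19, SE 1.39, adjusted p = 0.8 in edgeR). In these 4 the groups did not overlap.

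PC-20-3p was at 27.9 and 2.91 CPM in young leaves, against 0 and 0 in mature leaves, with an adjusted p of 0.41 in edgeR. Pooled over both libraries of a group, the young level was 2.77-fold above the floor of 3 reads in mature leaves, and at least 1.92-fold above mature leaves by the exact 95% counting interval. Of its 12 young reads 11 came from the first library, and the second, with 1 read, lies under its own floor, so no bound can be given without the first. PC-24-5p was at 43.1 and 32.1 CPM in young leaves, against 0 and 31.3 in mature leaves, so the higher mature library nearly reached the young ones. Its log2 fold change of 1.20 (SE 1.57, adjusted p = 0.8 in edgeR) became 0.01 without the first mature library and 6.4 without the second. PC-198-3p, at 17.7 and 43.7 CPM in young leaves against 26.9 and 10.4 in mature leaves, overlapped (0.72, SE 1.62, adjusted p = 0.84 in edgeR, and -0.14 without the second young library). PC-169-5p, the strongest, was at 3804 and 1676 CPM in young leaves, against 3865 and 3649 in mature leaves (log2 fold change -0.46, SE 1.07, adjusted p = 0.84 in edgeR). Its first young library was level with the mature ones and its second was lower, and without the first the log2 fold change was -1.16.

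The edgeR test called 4 of 208 entries in this comparison (1.92%), and 0 of the 8. At unadjusted p < 0.05 it passed 13% of all entries and 0 of the 8, and DESeq2 called 0 of the 8. Both young libraries lay above both mature libraries for 6 of the 8 sequences, for 14 of the 28 other tested PC entries, for 52 of the 172 tested entries with a family number and for 34.6% of all entries. Both lay below for 0 of the 8, and for 29.8% of all entries. PC-20-3p and PC-198-3p reached the filter on low counts in enough libraries only through C. sativus, the group in which they were chosen as high, so the counts over the 8 are a description. Among the other 6, both young libraries lay above for 5 and the log2 fold change was above 0 for 5. Of these, PC-24-5p reached the filter only with the help of parent libraries, and it is among the 5 in both counts. The log2 fold change was above 0 for 7 of the 8, for 22 of the other 28 PC entries, for 74 of the 172 with a family number and for 49.5% of all entries. The medians were 1.13 over the 8, 1.07 over the other PC entries, -0.30 over entries with a family number and -0.03 over all, and the same values with entries at 0 reads in a group set to their bounds. The share above 0 and the median of the 8 were thus near those of the other predicted entries.

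**Figure D4:**
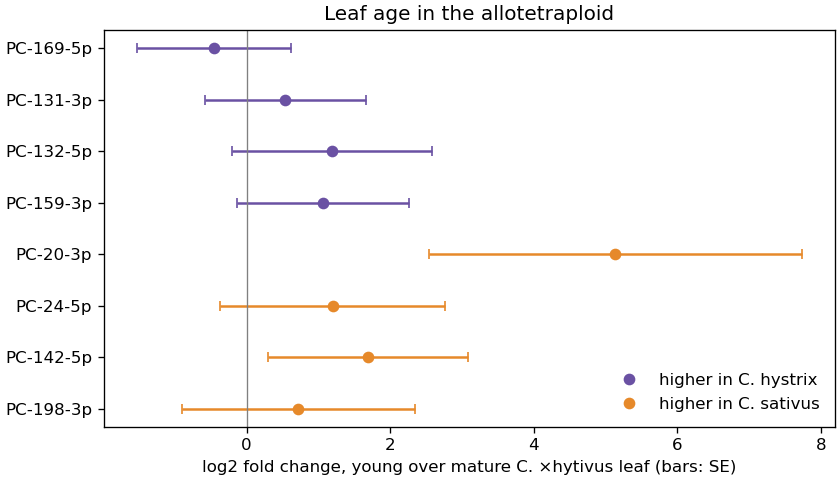
Log2 fold change of young over mature C. ×hytivus leaves for each of the 8 sequences, with bars of 1 SE (purple for those higher in C. hystrix, orange for those higher in C. sativus) from the fit over all libraries. Of the values, 7 lie above 0 and that of PC-169-5p lies below. The value of PC-20-3p is set against mature libraries without a read, so its size depends on the fit and is no measure of the ratio.

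Only PC-20 and PC-24 have both arms of the precursor listed, 2 of the 8 sequences, as for 52 of the 287 PC entries. The opposite arms are shown to compare them with the sequences above.
PC-20-5p: aATAATCAagtatgtagcaacatt
PC-24-3p: tTTGGCTTagactttaaatat
Laid against each other without gaps, PC-24-5p and PC-24-3p face over 19 bases, of which 18 can pair (1 of them as G with T), and each leaves 2 bases unpaired at its 3′ end. PC-20-5p and PC-20-3p face over all 24 bases, of which 21 can pair (3 as G with T), with 0 bases left unpaired at either 3′ end. As background, 2 unpaired bases at each 3′ end are what a DICER-LIKE enzyme leaves.

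The arms of PC-20 differed in the libraries where they had reads. The 5p arm had 3 and 8.5 raw reads in young C. ×hytivus, 5 and 3.5 in mature C. ×hytivus, 3.5 and 2 in C. hystrix leaves, and 0 and 0 in C. sativus leaves. The 3p arm had 11 and 1 raw reads in young C. ×hytivus, 0 and 0 in mature C. ×hytivus, 1 and 1 in C. hystrix leaves, and 9 and 5 in C. sativus leaves. Mature C. ×hytivus thus had reads of the 5p arm alone and C. sativus of the 3p arm alone, with 14 reads or fewer of both arms in any library. PC-20-5p lies only 2 edits from another predicted entry, PC-220-5p, and whether they share reads was not tested. The young C. ×hytivus libraries went opposite ways, the first with more 3p reads and the second with more 5p reads. The 5p arm did not pass the filter on low values and was not tested.

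The 3p arm of PC-24 overlapped between the parents, at 163 and 88.4 CPM in C. hystrix against 50.5 and 258 in C. sativus, and it outnumbered the 5p arm in all 8 libraries. The 5p arm made up 25.7% of the reads of both arms in young C. ×hytivus (28 of 109 pooled reads, exact 95% interval 17.8% to 34.9%) and 8.33% in mature C. ×hytivus (9 of 108, 3.88% to 15.2%). It made up 19.7% in C. hystrix (15 of 76, 11.5% to 30.5%) and 38.3% in C. sativus (41 of 107, 29.1% to 48.2%). By library these shares were 20.7% and 16.7% in C. hystrix against 48.3% and 34.6% in C. sativus, without overlap, a description since the 5p reads chose the sequence. Between leaf ages the 3p arm had 132 and 84.5 CPM in young leaves of C. ×hytivus and 103 and 264 CPM in its mature leaves (log2 fold change -0.76, SE 1.12, adjusted p = 0.82 in edgeR).

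**Figure D5:**
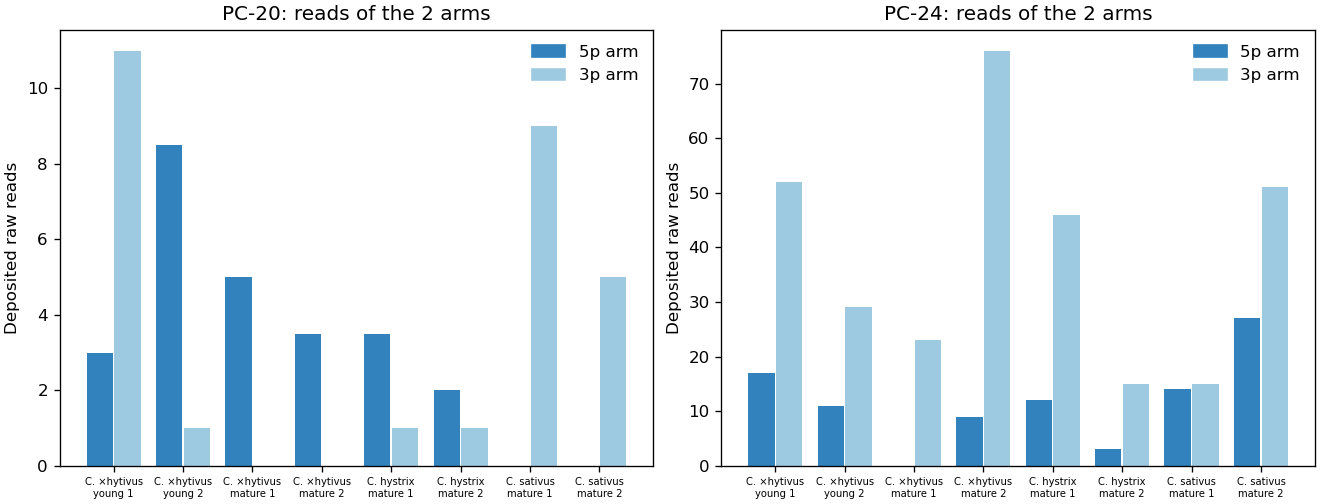
Deposited raw reads of the 5p arm (dark) and the 3p arm (light) of the PC-20 and PC-24 precursors in each of the 8 libraries, on linear axes that differ. PC-20 has only 3p reads in both C. sativus libraries and only 5p reads in both mature C. ×hytivus libraries, while the 3p arm of PC-24 is the higher one in every library.

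The precursor of PC-131-3p overlaps that of another predicted entry, PC-260-3p, by 66 bases (chr4:8688831-8688896) on the opposite strand, and their mature sequences are 5 edits apart, the closest pair that PC-131-3p forms with any entry.
PC-260-3p: tTAAGAATtgtagtatgaact
PC-260-3p had 218 and 233 CPM in young C. ×hytivus, 116 and 122 in mature C. ×hytivus, 188 and 118 in C. hystrix leaves, and 53.9 and 50.6 in C. sativus leaves. Both C. hystrix libraries lay above both C. sativus libraries, as for PC-131-3p, but C. sativus had reads in both libraries. Young against mature leaves differed by a log2 fold change of 0.92 (SE 1.03, adjusted p = 0.8 in edgeR). The sources used here do not say how the authors assigned reads between these 2 entries, and whether they share reads was not tested. PC-20-3p likewise lies 5 edits from PC-83-3p, and PC-159-3p lies 6 edits from PC-124-3p, an entry that was higher in C. sativus (log2 fold change of C. hystrix over C. sativus -2.25, SE 1.39).

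For each sequence the most alike tested entry outside the 8 was sought by the Pearson correlation of log2(CPM + 1) over the 8 libraries, which share depth, composition and group, so the values are a description. For the higher-in-C. hystrix sequences, as for the others, these entries all carried a family number, as did 172 of the 208 entries tested. PC-169-5p was most like an entry of miR166a, a regulator of HD-ZIP III factors (r = 0.997), which had 19489 and 19061 CPM in young C. ×hytivus, 21503 and 19469 in mature C. ×hytivus, 31302 and 34553 in C. hystrix leaves, and 4790 and 2126 in C. sativus leaves. PC-132-5p was most like another entry of miR166a (r = 0.97), PC-131-3p like miR160a (r = 0.981) and PC-159-3p like an entry of miR167d (r = 0.98), of families that act on auxin response factors. Like these sequences, all of them were lowest in the second C. sativus library. For the higher-in-C. sativus sequences the most alike entries were miR7528 for PC-142-5p (r = 0.934), miR398b, of a family that acts on copper superoxide dismutases, for PC-198-3p (r = 0.918), miR171c-p3 for PC-24-5p (r = 0.838) and miR167e for PC-20-3p (r = 0.756).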

How the data were processed

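Raw reads and normalized reads of 8 leaf small RNA libraries came from 1 deposited table. Per the labels' protocols, RNA was extracted with TRIzol and read on an Illumina HiSeq. The protocol names oligo(dT) beads and describes no separate small RNA library step. The submitters' processing notes name Bowtie 0.12.8. The sources used here do not name the genome or its species, nor how mismatches and reads were handled in counting. The column of raw reads, deposited by the authors, was taken as estimated counts (80.5% whole within 1e-06) and rounded to whole numbers. The deposited normalized reads, a signal equal to the raw reads times 1 constant per library, served only as an alternative. Hairpin length, C and G percent, folding energy and the folding score (MFEI) are the authors' deposited values, per the file headers. No column was unmatched (0).

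The 843 lines hold 733 sequences, each counted once. edgeR 4.0.16 in R 4.3.3 fitted group alone over all 8 libraries (filterByExpr, TMM, robust quasi-likelihood, 4 residual degrees of freedom), with two-sided Benjamini-Hochberg adjustment over 208 entries at 0.05. All 8 sequences passed the filter, which kept 36 of 287 PC entries, PC-20-3p and PC-198-3p only through the C. sativus libraries. SE is the log2 fold change over the root of F. Intervals are exact (scipy 1.17.1). DESeq2 1.42.0, other scalings, filters, a replicate block and leaving out libraries were alternatives. The named sequences were given, with other arms, overlapping loci and most alike entries added by rule. The members and lists were chosen with earlier results of these data known. The test was also tried on simulated data with a fixed spread that was not estimated from these libraries. That trial therefore does not show the power of the test for these sequences.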

Additional observations from a re-analysis of the deposited data

How the results depend on the processing

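None of the 8 sequences was called for leaf age under any of the 16 alternatives, and 127 of their 128 values kept their sign. The exception was PC-198-3p, which ranged over the libraries left out between -0.14 (without the second young library) and 1.29. The other arm PC-24-3p ranged between -1.54 and 0.19 (without the second mature library). The count of all entries called for leaf age, 4, was 7 with RLE size factors, 17 with DESeq2, 0 without either young library and 0 to 32 over the libraries left out in turn, highest without the first C. sativus library. No pairing by replicate number is stated, and with the replicate block 9 entries were called, 0 of the 8 among them. The replicate differences of young and mature leaves correlated at 0.028. Between the parents, the 2 entries called were 1 with RLE size factors, with library totals only, with no filter, with fragment families left out of the totals and with counts left unrounded (an alternative added after seeing the data), and 1 to 45 over the libraries left out.

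Among values without a test, mature C. ×hytivus over C. hystrix reversed for PC-24-5p (0.23 without the first mature C. ×hytivus library, lowest -6.12) and PC-142-5p (0.13 without that library, 6.31 without the first C. hystrix library, lowest -1.19). Over the mid-parent, on the log scale, PC-198-3p (-0.03) turned to 0.05 without the second young library, 0.34 without the second mature C. ×hytivus library, 2.01 without the first C. hystrix library and 0.28 without the second C. sativus library, with a lowest value of -0.69. PC-142-5p (-1.37) ranged between -1.93 and 1.92 (without the first C. hystrix library) and PC-159-3p (0.54) between -0.0025 (without the second mature C. ×hytivus library) and 3.25. The direction between the parents, by which the sequences were chosen, held in all 136 values, and with library totals only its size fell on the C. hystrix side (PC-169-5p 9.58, PC-132-5p 3.71, PC-159-3p 2.69, PC-131-3p 2.55) and grew on the C. sativus side (PC-24-5p -2.72, PC-142-5p -3.22, PC-20-3p -3.45, PC-198-3p -3.49). That setting drops the TMM factors, 0.813 and 0.77 in the C. hystrix libraries and 1.25 and 2 in the C. sativus libraries. All 8 values were lower under it. What lies behind the other changes, apart from the libraries left out, was not tested. Depth limits the weaker sequences most: PC-20-3p had at most 11 reads in a library.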
